A study of Rattus norvegicus with 16 samples.

Results

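Heat shock proteins and molecular chaperones were followed in rat dentate gyrus, the part of the hippocampus that receives the main cortical input, in naive rats and in groups labelled 0 h, 2 h, 3 h, 6 h, 12 h and 24 h. The members are probe sets, the array's measuring units, each a set of short probes read out as 1 value. All were taken whose single annotated gene symbol begins with Hsp and a letter from a to h, with Dnaj, or with Cct and a digit. Also taken were all whose single symbol is Cryab, Hsp90aa1, Hsp90ab1, Hsp90b1, Calr, Canx, Tcp1, Stip1 or St13. The rule uses symbols and no measured value, though it was chosen with earlier results of these data known. It took 66 of 8740 probe sets, for 33 of 4736 genes. Of these, 63 probe sets for 32 genes passed the filter on dim signals. Hspa1l, which had 1 probe set, did not pass, nor did 1 of the 3 probe sets of Hspa5 and 1 of the 2 of Hspb2. Another 10 probe sets carry a symbol of this kind beside other symbols and were left out. Through them Hspa8 and Hsp90aa1, the constitutive cytosolic Hsp70 and the stress-inducible cytosolic Hsp90, were not analysed here, and neither was Tcp1.

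The samples are 16 arrays of total RNA on the Affymetrix RGU34A platform, with 3 naive, 2 at 0 h, 2 at 2 h, 2 at 3 h, 3 at 6 h, 2 at 12 h and 2 at 24 h. Passive avoidance, the task named in the labels, trains an animal not to repeat an act that had an unpleasant outcome. The wording of the labels counts even the naive arrays among passive avoidance trained rats; naive is read here as untrained, and the starting point of the hours is not stated. The labels give no strain, sex, age or pooling of animals. Replicates are not tied to separate animals by any label, so each p-value speaks to the spread between these arrays, which may be technical.

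Chaperones bind unfolded or partly folded proteins and keep them from aggregating. Hsp70 proteins work in cycles with J-domain partners, which deliver clients and start ATP hydrolysis, and with exchange factors, which release the spent nucleotide; Hsp90 completes the folding of kinases and steroid receptors, and chaperonins fold proteins inside a closed chamber. Cytosolic stress acts through heat shock factor on heat shock elements in promoters, while stress in the endoplasmic reticulum (ER) acts through the unfolded protein response on ER stress elements. In neurons, chaperones also serve synaptic vesicle cycling and receptor assembly.

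Promoter sequences were searched for exact forms of these elements. RefSeq promoters of build GRCr8, which run from 250 bases before to 50 bases after the start site, were matched by gene identifier for 29 of the 33 genes. A heat shock element was searched for as 3 alternating units of GAA and TTC, each separated by 2 bases, and it was found in 4 of the 29 promoters, those of Dnaja1, Hspd1, Hspe1 and Hsph1, against 0.798% of all 33469 promoters. An ER stress element was searched for as CCAAT, any 9 bases and CCACG on either strand, and it was found in 4 of the 29, those of Calr, Canx, Hsp90b1 and Hspa5, against 0.0657% of all promoters. A looser search for the heat shock element, with 2 units instead of 3, matched 11 of the 29 promoters, against 15.9% of all promoters. Dnajb1, Hspb1 and Stip1 were among the 11. A match is a string of letters and not a site shown to be bound. A promoter without a match may still hold a looser form or one outside the window. The windows, except that of Dnaja1, are printed so that the members with a match can be followed below by their values. Capitals mark the elements.
Hspe1 and Hspd1, shared between the 2 genes and shown on the strand of Hspe1 (chr9:64084242-64084294, plus strand): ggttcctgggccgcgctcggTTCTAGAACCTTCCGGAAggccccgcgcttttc
Hsph1 (chr12:10427312-10427364, plus strand): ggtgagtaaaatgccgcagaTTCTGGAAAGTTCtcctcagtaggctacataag
Hspa5 (chr3:38452953-38453011, plus strand): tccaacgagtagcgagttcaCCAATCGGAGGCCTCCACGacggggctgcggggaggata
Hsp90b1, the nearer of 2 elements (chr7:23012327-23012385, minus strand): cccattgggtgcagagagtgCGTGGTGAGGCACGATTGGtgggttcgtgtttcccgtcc
Canx (chr10:35158049-35158107, minus strand): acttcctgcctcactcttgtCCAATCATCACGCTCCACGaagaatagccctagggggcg
Calr (chr19:40213117-40213173, plus strand): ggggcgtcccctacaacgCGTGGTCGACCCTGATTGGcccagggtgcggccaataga

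All intensities below are on a common scale, with each array brought to a 2% trimmed mean of 105 arbitrary units. Before scaling that mean ran from 33.3 on 12 h replicate 1 to 170 on 24 h replicate 2. Differences are log2 differences from the naive mean. Of 10 markers listed for dentate granule neurons, 6 had a probe set with 1 symbol; Calb1, Neurod1, Lct, Npy1r and Penk passed the filter, and Tdo2 lay at the lowest level on 14 of 16 arrays. Markers of choroid plexus, ependyma and meninges (10 of 13 measured) were given a score, the mean log2 deviation from each gene's average. It was -0.20 to 1.54 on naive arrays and -1.05 to 0.57 on trained arrays. The markers did not move together. Ttr, Enpp2, Sostdc1, Igfbp2, Igf2, Ptgds and Slc4a2 had a lower mean on trained than on naive arrays, and Cp, Col1a1 and Col1a2 a higher one. The log2 level of Ttr was 10.8 to 11.9 on naive arrays and 6.14 to 11.96 on trained arrays. None of the 10 markers lay at the lowest level on any array, and the part of this tissue in the chaperone values was not tested. Beta-actin control probe sets lie at both ends of the transcript, and their 3'/5' intensity ratio goes up as the labelled RNA gets shorter; it was 1.49 to 1.70 on naive arrays and 1.51 to 2.80 on trained arrays.

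The chaperone probe sets sat slightly above naive at 0 h and mostly below it from 2 h to 12 h, with the lowest medians at 6 h and 12 h. The median difference of the 63 members was 0.18 at 0 h, -0.07 at 2 h, -0.10 at 3 h, -0.27 at 6 h, -0.25 at 12 h and -0.05 at 24 h. Over all 6220 tested probe sets the medians at these hours were -0.02, 0.03, -0.07, -0.03, 0.06 and -0.0044. By the brightest probe set of each of the 32 genes, the members' medians were 0.27, -0.04, -0.05, -0.0043, -0.04 and 0.05. Of the 63 members, 41 were above naive at 0 h, 21 at 2 h, 24 at 3 h, 17 at 6 h, 17 at 12 h and 28 at 24 h; over all tested probe sets 47.3%, 52.7%, 41.3%, 46.8%, 55.9% and 49.5% were above naive at those hours. At 3 h and 24 h the members' median crossed to 0.02 and 0.0022 when arrays were centred on the median instead, a setting that moved the median of all probe sets at 3 h from -0.07 to 0.04. The 6 comparisons use the same 3 naive arrays, so they are not independent of each other. In whole tissue, fewer cells of a type and less RNA per cell cannot be told apart.

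**Figure D1:**
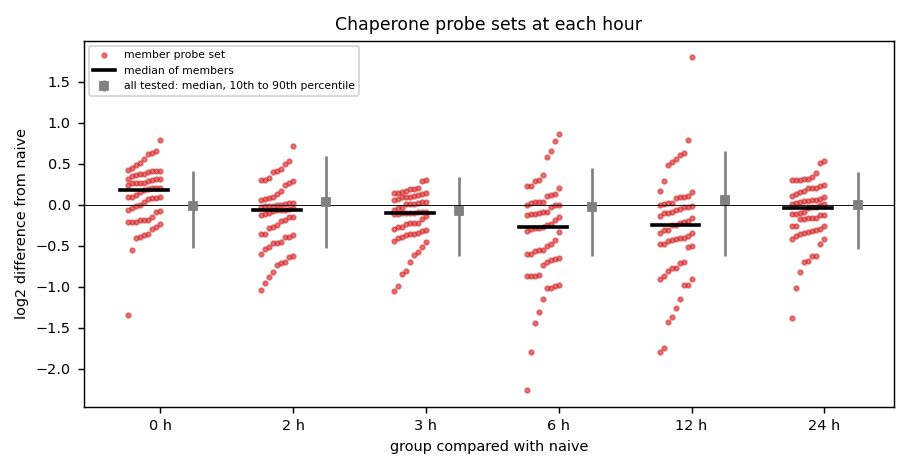
Log2 difference from naive of each of the 63 member probe sets (red points) at each hour, with their median (black line) beside the median and the 10th to 90th percentile of all 6220 tested probe sets (grey). The black line lies above the grey square at 0 h (0.18 against -0.02) and below it at 6 h (-0.27 against -0.03) and 12 h (-0.25 against 0.06).

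No member passed the limma test after Benjamini-Hochberg adjustment over all 6220 probe sets in any of the 9 comparisons. The share of all tested probe sets that passed was 0.0161% at 2 h (1 probe set, not a member) and 0% in each other comparison. The smallest adjusted p of a member was 0.199, for Cct6a at 12 h. Leaving out 6 h replicate 3 let 3 members pass at 6 h, Hsph1, Hsp90b1 and Hsp90ab1, among 29 of all probe sets, and leaving out 12 h replicate 2 let Cct6a pass at 12 h, among 23. At an unadjusted p under 0.05, members divided by hour as follows. At 0 h, 3 were higher and 1 lower, where 1.53% and 3.47% of all probe sets were. At 2 h, 1 was higher and 5 were lower, where 3.6% and 4.07% of all were. At 3 h, 0 were higher and 2 lower, against 0.772% and 3.54%. These counts are small and moved with single arrays: the 0 h total of 4 was 9 without naive replicate 3, 1 without naive replicate 2 and 0 without 0 h replicate 2; the 2 h total of 6 was 2 without 2 h replicate 2 and 10 without 6 h replicate 2; the 3 h total of 2 was 7 without 3 h replicate 1 and 0 without 3 h replicate 2.

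At 6 h, 2 members were higher and 17 lower at that threshold; the 17 are 27% of the members, where 6.29% of all probe sets were lower and 3.12% higher. At 12 h, 2 were higher and 13 lower; the 13 are 20.6%, where 5.61% of all were lower and 4.53% higher. At 24 h, 0 were higher and 1 lower, against 0.965% and 3.47%. For the 6 trained groups together, 1 was higher and 8 were lower, against 1.66% and 3.7%. The 8 were 2 without naive replicate 3 and 4 without naive replicate 1. By the brightest probe set of each of the 32 genes, 0 were lower and Cct6a alone was higher. Of all 3678 tested genes by the same choice, 87 were lower and 55 higher. In the F test over the 7 groups 13 members had such a p, against 10.3% of all, and in that over the 6 trained times 13, against 10.8%; without 6 h replicate 3 these counts were 20 and 22, and without 0 h replicate 2 the latter was 6.

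Members whose arrays lay wholly below the naive arrays were counted without a model, and they were more frequent than among all probe sets at 2 h, 6 h, 12 h and 24 h. At 6 h all 3 arrays lay below every naive array for 15 members (23.8%; 6.56% of all probe sets) and above every naive array for 1 (4.34% of all). At 12 h both arrays lay below every naive array for 20 members (31.7%; 11.8% of all) and above for 4 (15.9% of all). At 2 h the counts were 14 below (22.2%; 11.7% of all) and 5 above (15.3% of all), and at 24 h 14 below (22.2%; 11.8% of all) and 2 above (8.86% of all). At 0 h 5 were below (7.94%; 11.7% of all) and 9 above (14.3%; 10% of all), and at 3 h 6 below (9.52%; 12% of all) and 4 above (7.3% of all). Single arrays weighed on the low values. On 6 h replicate 2, 20 of 63 members were lower than the naive mean by more than 1 on the log2 scale, on replicate 1 there were 7, and on replicate 3 there were 0; these are 31.7%, 11.1% and 0% of the members, where 11.8%, 6.17% and 3.83% of all probe sets were as low. Without 6 h replicate 2 the count at an unadjusted p under 0.05 was 5 lower members (3.7% of all probe sets), without naive replicate 3 it was 9, and without 6 h replicate 3 it was 21. For 12 h it was 6 without replicate 1 and 8 without replicate 2. The beta-actin ratio was 1.92, 2.30 and 2.02 on the 6 h arrays and 2.40 and 2.80 on the 12 h arrays, above all naive arrays. It was 2.62 and 2.30 at 0 h, 1.96 and 2.69 at 2 h, 1.51 and 2.15 at 3 h, and 1.85 and 1.78 at 24 h. The trimmed mean before scaling was 56.5, 68.4 and 109 at 6 h and 33.3 and 116 at 12 h, against 113 to 143 on naive arrays. The choroid plexus score was -0.05 to 0.57 at 6 h and -0.46 and -0.07 at 12 h. It was 0.56 and -0.64 at 0 h, -0.59 and 0.51 at 2 h, -0.57 and -0.50 at 3 h, and -0.88 and -1.05 at 24 h. The part of RNA quality, of array brightness and of neighbouring tissue in these values was not tested.

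**Figure D2:**
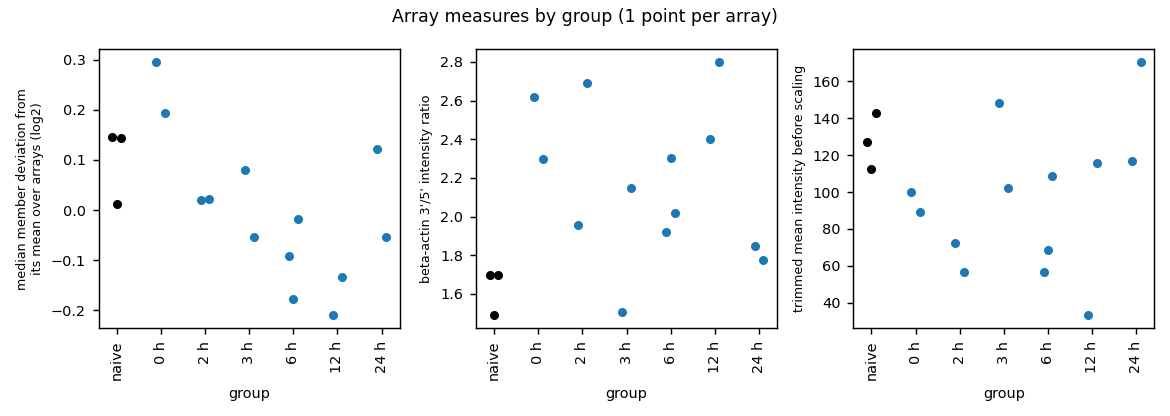
Each point is 1 array: the median deviation of the 63 members from their means over arrays (left, log2), the beta-actin 3'/5' intensity ratio (middle) and the trimmed mean intensity before scaling (right, arbitrary units). The highest actin ratio (2.80) and the lowest intensity (33.3) both belong to the 12 h group, on different arrays. The 0 h arrays had ratios of 2.62 and 2.30 and member medians of 0.30 and 0.19. The 12 h arrays had ratios of 2.40 and 2.80 and member medians of -0.21 and -0.13.

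**Figure D3:**
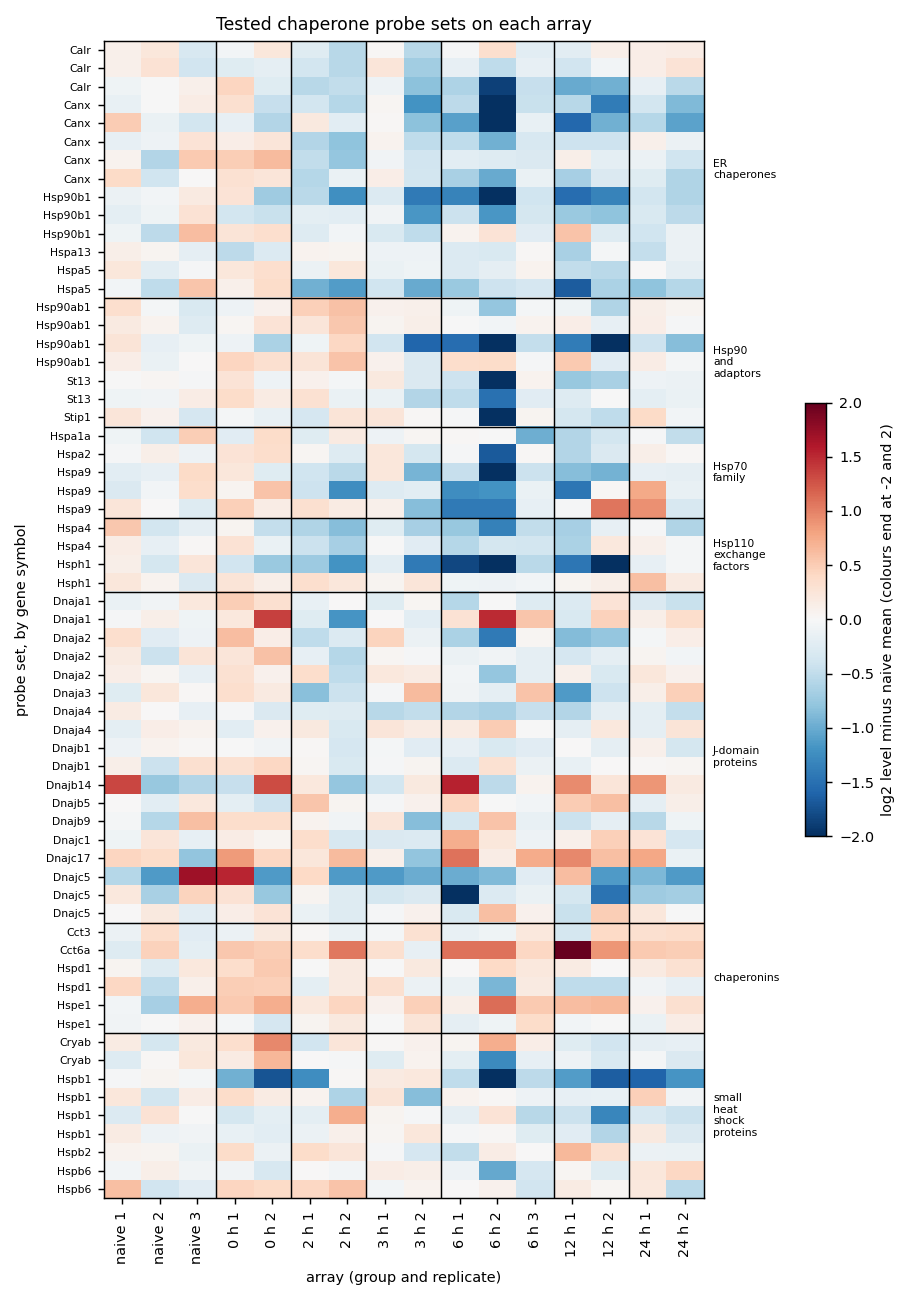
Each row is 1 of the 63 tested probe sets, named by gene and ordered by class, and each column 1 array; colour gives the log2 level minus the naive mean. Cells more than 1 below the naive mean were most frequent on 6 h replicate 2 (31.7% of members, 11.8% of all tested probe sets). Next came 12 h replicate 1 (14.3% and 7.19%) and 12 h replicate 2 (12.7% and 5.42%). By class, the lowest medians at 6 h and 12 h were those of ER chaperones, Hsp90 with its adaptors, and the Hsp70 and Hsp110 families.

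ER chaperones were below naive at every hour after 0 h by most of their probe sets. Of 14 probe sets for Hspa5, Hsp90b1, Calr, Canx and Hspa13, 12 were below naive at 2 h, 14 at 3 h, 12 at 6 h, 13 at 12 h and 12 at 24 h, with medians of -0.43, -0.33, -0.55, -0.49 and -0.32. Over all 6220 tested probe sets 2944, 3649, 3308, 2740 and 3144 were below naive at these hours. At 0 h 6 of 14 were below naive and the median was 0.09. With median centring the medians of the 14 from 2 h on were -0.43, -0.22, -0.46, -0.52 and -0.25. The class leaves out the ER-resident J-domain proteins Dnajb9, Dnajb14 and Dnajc1. With these added, 13 of 17 probe sets were below naive at 2 h, 17 at 3 h, 12 at 6 h, 14 at 12 h and 14 at 24 h. The medians of the 17 were -0.35, -0.275, -0.27, -0.41 and -0.29. At an unadjusted p under 0.05, 7 of the 14 were lower at 6 h and 7 at 12 h, and none was higher at either hour. Over all tested probe sets 6.29% and 5.61% were lower at that threshold. The 14 stand for 5 genes, and the 7 at 6 h came from Calr, Canx and Hsp90b1, so they are not independent of each other. By the brightest probe set of each gene, no ER chaperone was lower at that threshold at 6 h, and Hspa5 alone was at 12 h.

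Hspa5 encodes BiP, the Hsp70 of the ER and the main sensor partner of the unfolded protein response. Its probe set S63521_i_at had the smallest unadjusted p of any member over the 7 groups (0.00731, limma adjusted p = 0.338). It read 194, 142 and 296 on the naive arrays, 217 and 261 at 0 h, 103 and 93.0 at 2 h, 152 and 101 at 3 h, 120, 151 and 159 at 6 h, 63.5 and 130 at 12 h, and 115 and 136 at 24 h. Both 2 h, both 12 h and both 24 h arrays lay below every naive array, and the 0 h arrays lay within the naive range. The difference was -1.04 (SE 0.33, limma adjusted p = 0.43) at 2 h and -1.15 (SE 0.33, limma adjusted p = 0.296) at 12 h. A second probe set, M14050_s_at, read 720, 534 and 609 on naive arrays, 718 and 781 at 0 h, 566 and 721 at 2 h, 562 and 583 at 3 h, 511, 544 and 649 at 6 h, 439 and 426 at 12 h, and 617 and 546 at 24 h. At 12 h it too lay below every naive array (-0.51, SE 0.20), while at 2 h, with 566 and 721, it overlapped the naive arrays (0.05). The pair of probe sets correlated at r = 0.54 over the 16 arrays.

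Hsp90b1 encodes Grp94, the Hsp90 of the ER. The probe set AA685903_at read 143, 151 and 176 on naive arrays, 189 and 95.9 at 0 h, 108 and 66.8 at 2 h, 130 and 58.5 at 3 h, 62.0, 25.7 and 118 at 6 h, 54.3 and 62.0 at 12 h, and 121 and 103 at 24 h. Every 6 h and 12 h array was below every naive array, with differences of -1.45 (SE 0.43) and -1.43 (SE 0.48), limma adjusted p = 0.388 and 0.361. At 0 h its 2 arrays lay on either side of the naive arrays. S69315_at read 216, 233 and 302 on naive arrays, 193 and 182 at 0 h, 217 and 214 at 2 h, 237 and 111 at 3 h, 184, 110 and 194 at 6 h, 148 and 141 at 12 h, and 201 and 172 at 24 h. At 6 h and 12 h it again lay below every naive array (-0.65 and -0.78). The third probe set, S69316_s_at, read 248, 184 and 407 on naive arrays, 317 and 333 at 0 h, 223 and 255 at 2 h, 215 and 186 at 3 h, 277, 319 and 225 at 6 h, 395 and 223 at 12 h, and 200 and 243 at 24 h. It overlapped naive at both hours (0.03 and 0.16), so the probe sets of Hsp90b1 did not share 1 course.

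Calnexin (Canx) and calreticulin (Calr) are the lectin chaperones that hold newly made glycoproteins in the ER. Of the 5 Canx probe sets, 5 were below naive at 6 h, from -1.31 to -0.25, and 4 of them had an unadjusted p under 0.05. The Canx probe set rc_AI010725_at read 731, 766 and 997 on naive arrays, 907 and 975 at 0 h, 550 and 470 at 2 h, 867 and 577 at 3 h, 576, 423 and 659 at 6 h, 620 and 617 at 12 h, and 886 and 758 at 24 h. It was below every naive array at 2 h, 6 h and 12 h and overlapped naive at 0 h, 3 h and 24 h; its 2 h difference was -0.70 (SE 0.23, limma adjusted p = 0.452). A probe set for the same database entry, Canx rc_AI010725_g_at, read 1142, 727 and 1562 on naive arrays, 1537 and 1682 at 0 h, 779 and 638 at 2 h, 1038 and 837 at 3 h, 940, 916 and 889 at 6 h, 1184 and 957 at 12 h, and 1003 and 823 at 24 h. Its differences of 0.56 at 0 h and -0.63 at 2 h (SE 0.26 each) overlapped the wide naive spread. The Canx probe set L18889_at read 144, 160 and 178 on naive arrays, 200 and 116 at 0 h, 124 and 107 at 2 h, 165 and 69.8 at 3 h, 111, 37.4 and 118 at 6 h, 108 and 60.9 at 12 h, and 124 and 87.2 at 24 h. It was below every naive array at 2 h, 6 h, 12 h and 24 h (-1.02 at 6 h). The dimmest Canx probe set, rc_AA893328_at, read 83.6, 53.6 and 45.4 on naive arrays, 52.4 and 39.2 at 0 h, 67.6 and 50.6 at 2 h, 59.9 and 33.1 at 3 h, 27.8, 9.08 and 53.3 at 6 h, 19.9 and 30.2 at 12 h, and 39.5 and 28.1 at 24 h, and at 12 h and 24 h it lay below every naive array. The fifth, rc_AI235707_g_at, read 513, 299 and 396 on naive arrays, 484 and 463 at 0 h, 265 and 357 at 2 h, 431 and 304 at 3 h, 250, 195 and 358 at 6 h, 248 and 321 at 12 h, and 332 and 258 at 24 h, and overlapped naive at every hour.

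The Calr probe set X53363cds_s_at read 251, 263 and 285 on naive arrays, 173, 73.1 and 194 at 6 h, and 132 and 136 at 12 h. It lay below every naive array at both hours (-0.98 and -0.99). The brighter Calr probe set D78308_at, at 1309, 1432 and 982 on naive arrays, read 1203, 1547 and 1062 at 6 h and 1058 and 1326 at 12 h. Those values overlapped naive at both hours (0.03 and -0.05). Hspa13, an ER-associated Hsp70 relative, was -0.19 at 6 h and -0.34 at 12 h by its only probe set.

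**Figure D4:**
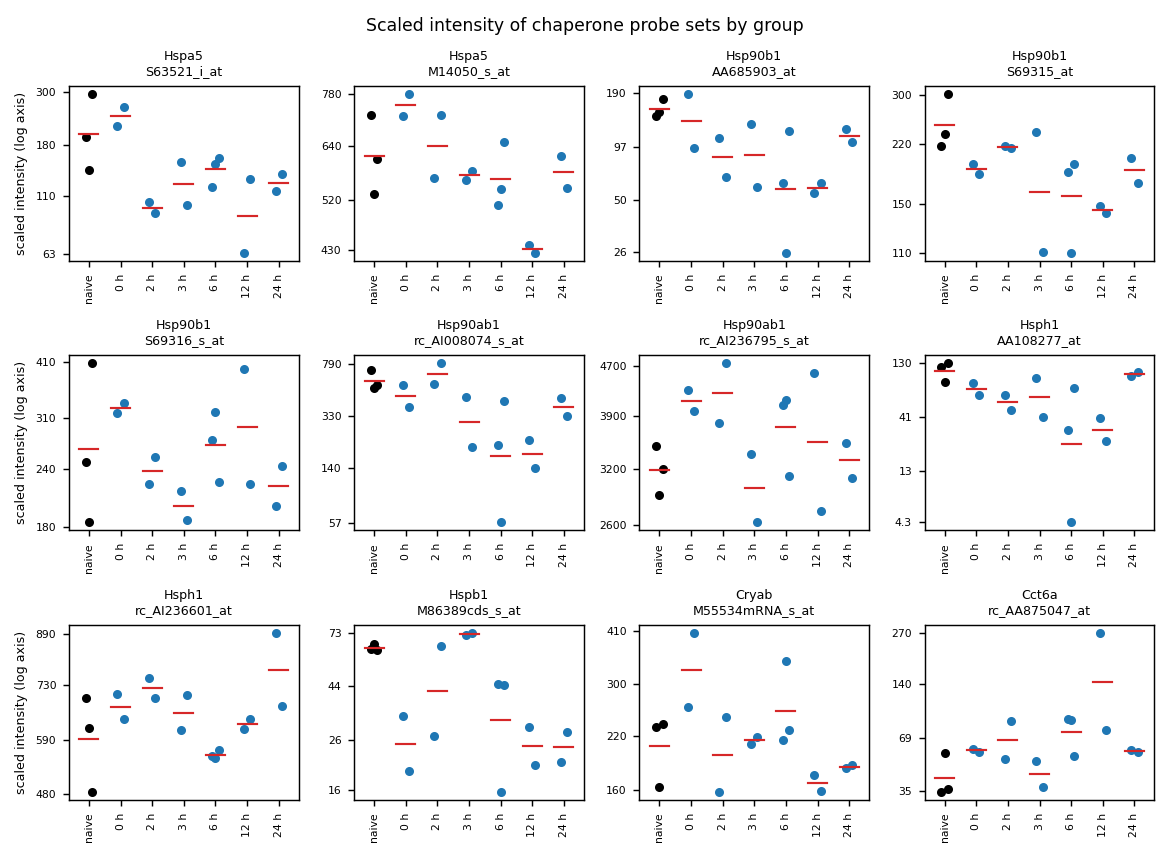
Scaled intensity (log axis, arbitrary units) of 12 probe sets, with 1 point per array (black for naive, blue for trained groups) and a red line at each group's geometric mean. Hsph1 AA108277_at and Hsp90ab1 rc_AI008074_s_at drop to 4.31 and 57.3 on 6 h replicate 2, while Hsph1 rc_AI236601_at stays between 552 and 567 on the 6 h arrays.

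Hsp90ab1, the constitutive cytosolic Hsp90, was measured by 4 probe sets. Of these, rc_AI008074_s_at read 710, 530 and 557 on naive arrays, 553 and 385 at 0 h, 561 and 795 at 2 h, 453 and 198 at 3 h, 206, 57.3 and 425 at 6 h, 224 and 140 at 12 h, and 447 and 331 at 24 h. The 3 h, 6 h, 12 h and 24 h arrays all lay below every naive array. The 6 h difference was -1.80 (3.47-fold, SE 0.50, limma adjusted p = 0.373), and it was -1.01 without 6 h replicate 2. Another Hsp90ab1 probe set, rc_AI236795_s_at, read 3482, 2906 and 3201 on naive arrays, 4291 and 3963 at 0 h, 3796 and 4740 at 2 h, 3377 and 2622 at 3 h, 4052, 4131 and 3121 at 6 h, 4567 and 2732 at 12 h, and 3528 and 3088 at 24 h. It was 0.23 above naive at 6 h (SE 0.21) and overlapped the naive arrays. The Hsp90ab1 probe set S45392_at read 2871, 2222 and 1837 on naive arrays, 2127 and 2410 at 0 h, 3155 and 3398 at 2 h, 2417 and 2437 at 3 h, 2137, 1333 and 2214 at 6 h, 2137 and 1499 at 12 h, and 2468 and 2357 at 24 h. The last, rc_AI007820_s_at, read 2961, 2764 and 2197 on naive arrays, 2688 and 3176 at 0 h, 3103 and 3826 at 2 h, 2734 and 2839 at 3 h, 2607, 2510 and 2742 at 6 h, 2867 and 2333 at 12 h, and 2868 and 2577 at 24 h. At 2 h all 4 Hsp90ab1 probe sets had a mean above naive, by 0.17 to 0.53, and 3 of them lay above every naive array on both arrays. The 2 h difference of S45392_at was 0.53 (SE 0.25, limma adjusted p = 0.648).

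Stip1 (Hop) hands clients from Hsp70 to Hsp90, and St13 (Hip) steadies the client-bound form of Hsp70. The St13 probe set X82021cds_at read 146, 150 and 143 on naive arrays and 110, 30.5 and 154 at 6 h. A second, rc_AI171166_at, read 91.6, 92.5 and 107 on naive arrays and 67.8, 34.6 and 82.7 at 6 h. By the first, replicates 1 and 2 at 6 h lay below every naive array and replicate 3 above every naive array; by the second, all 3 lay below. The 6 h differences were -0.87 (SE 0.40) and -0.74 (SE 0.28). The pair had the highest correlation among probe sets of 1 gene (r = 0.85 over 16 arrays). Stip1 was -0.66 at 6 h, with 186, 46.8 and 196 against 225, 201 and 150 on naive arrays, so the low mean rested on replicate 2.

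In the Hsp70 and Hsp110 families, with Hspa5 and Hspa13 left to the ER chaperones, every one of the 9 tested probe sets was below naive at 6 h. Over all 6220 tested probe sets 3308 were below. Among the 9, 4 had an unadjusted p under 0.05, for Hspa9, Hspa4 and Hsph1, where 6.29% of all were lower at that threshold. With median centring 8 of the 9 were below, and 2682 of all 6190. The 9 include 3 probe sets of Hspa9 and 2 each of Hspa4 and Hsph1, so they are not independent of each other. Hspa9 is mortalin, the mitochondrial Hsp70 that pulls imported proteins into the matrix. Its S75280_s_at read 68.8, 70.7 and 103 on naive arrays, 57.9, 13.4 and 59.1 at 6 h, and 43.9 and 41.1 at 12 h, below every naive array at both hours (-1.15 and -0.90). The Hspa9 probe set S78556_at read 145, 171 and 227 on naive arrays, 75.5, 77.7 and 162 at 6 h, 65.1 and 181 at 12 h, and 301 and 160 at 24 h. It overlapped naive at each of these hours (-0.86, -0.71 and 0.30). The dimmest Hspa9 probe set, rc_AA944973_at, read 11.3 to 15.9 on naive arrays, 2.31 to 12.0 at 6 h and 13.3 to 28.1 at 12 h. At 6 h 2 of its 3 arrays lay at the lowest level. Its log2 mean was 3.75 on naive arrays and higher at 12 h (4.27), 2 h (3.99) and 24 h (4.05). Hspa1a, the stress-inducible cytosolic Hsp70, has a near-identical neighbour in Hspa1b, so its single probe set may read both. It read 29.8, 24.1 and 44.7 on naive arrays and 27.1 and 41.0 at 0 h, and differed by 0.07 at 0 h and by -0.48 to -0.03 at the other hours, with no unadjusted p under 0.05.

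Hspa4 and Hsph1 are Hsp110 proteins, exchange factors for Hsp70. Hspa4 had both probe sets below every naive array at 2 h. They read 53.0 and 44.5 against 117, 62.6 and 71.5 for AF077354_at, and 170 and 144 against 254, 203 and 231 for AF077354_g_at. The 2 h differences were -0.73 (SE 0.34) and -0.55 (SE 0.24). At 6 h, with 47.7, 31.7 and 57.2 for the first and 154, 179 and 178 for the second, both again lay below every naive array (-0.87 and -0.43). For Hsph1, AA108277_at read 117, 85.4 and 128 on naive arrays, 83.6 and 65.1 at 0 h, 65.6 and 47.6 at 2 h, 94.1 and 40.9 at 3 h, 30.7, 4.31 and 75.0 at 6 h, 39.8 and 24.4 at 12 h, and 96.8 and 106 at 24 h. The 6 h and 12 h arrays were below every naive array and the 24 h arrays were within the naive range. The 6 h difference was -2.26 (4.79-fold, SE 0.64, limma adjusted p = 0.373), and -1.18 without 6 h replicate 2, whose reading was set to the lowest level of the scale (5.05). The brighter Hsph1 probe set, rc_AI236601_at, read 694, 619 and 483 on naive arrays, 706 and 640 at 0 h, 751 and 695 at 2 h, 613 and 702 at 3 h, 555, 552 and 567 at 6 h, 616 and 641 at 12 h, and 895 and 673 at 24 h. It was within the naive range at 6 h and 12 h (-0.09 and 0.09).

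J-domain proteins were mostly above naive at 0 h and mostly below it at 2 h. Of 18 probe sets for 11 genes, 13 were above naive at 0 h (median 0.23), and 14 were below at 2 h (-0.14), 10 at 3 h (-0.09), 9 at 6 h (-0.0035), 11 at 12 h (-0.08) and 8 at 24 h (0.02). With median centring, which left 17 of them tested, the medians were 0.28, -0.16, 0.02, 0.06, -0.11 and 0.08, with 6 below naive at 3 h and 13 at 12 h. Dnaja1, a cytosolic partner of Hsp70, had the smallest unadjusted p of any member over the 6 trained times (0.0120, limma adjusted p = 0.34). Its rc_AA800551_at read 386, 430 and 369 on naive arrays, 456 and 1012 at 0 h, 332 and 174 at 2 h, 398 and 342 at 3 h, 481, 1107 and 579 at 6 h, 321 and 541 at 12 h, and 426 and 502 at 24 h. It was above every naive array at 0 h and 6 h and below every naive array at 2 h, and the readings of 1012 and 1107 each stood on 1 array of their group. The other Dnaja1 probe set, U53922_at, read 725, 760 and 927 on naive arrays, 1121 and 993 at 0 h, 718 and 805 at 2 h, 675 and 823 at 3 h, 537, 797 and 666 at 6 h, 658 and 962 at 12 h, and 653 and 590 at 24 h. It shared the high 0 h values (0.40) and not those at 6 h (-0.28).

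Dnaja3, the mitochondrial J-domain protein, read 49.8, 68.8 and 60.01 on naive arrays, 74.6 and 66.9 at 0 h, 32.9 and 43.7 at 2 h, 58.2 and 91.2 at 3 h, 56.3, 52.2 and 87.9 at 6 h, 26.9 and 44.2 at 12 h, and 64.2 and 82.0 at 24 h. It was below every naive array at 2 h and 12 h (-0.64 and -0.78, SE 0.32 at 12 h). Dnaja4, whose product is an Hsp70 partner of the same subfamily, by the probe set AA848268_at read 178, 159 and 141 on naive arrays, 157 and 130 at 0 h, 135 and 133 at 2 h, 109 and 113 at 3 h, 106, 101 and 115 at 6 h, 106 and 141 at 12 h, and 139 and 114 at 24 h. That probe set was below the naive mean on 13 of 13 trained arrays, and 12 of them lay below every naive array (-0.37 for all trained groups, SE 0.15, limma adjusted p = 0.922). The brighter Dnaja4 probe set rc_AA799570_at read 309, 388 and 373 on naive arrays, 305 and 377 at 0 h, 405 and 286 at 2 h, 418 and 397 at 3 h, 397, 504 and 354 at 6 h, 313 and 410 at 12 h, and 314 and 425 at 24 h. The pair differed in sign against naive from 3 h on, was below naive by both probe sets at 0 h and 2 h, and had r = -0.50 over the 16 arrays.

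Dnajb1, the classic stress-inducible Hsp40, stayed close to naive by both probe sets, from -0.24 to 0.37 over the 6 hours, with no unadjusted p under 0.05. Dnajb5, a related cytosolic protein, read 191 and 204 at 12 h against 134, 116 and 155 on naive arrays (0.56, SE 0.23, limma adjusted p = 0.454), above every naive array. Dnajc5 encodes cysteine string protein, the J-domain chaperone of synaptic vesicles. Its bright probe set rc_AA859806_at differed from naive by -0.19 to 0.21 over the hours. The dimmer U39320_at read 33.1, 18.1 and 38.9 on naive arrays, 6.15, 23.7 and 26.1 at 6 h, and 22.4 and 10.3 at 12 h; it overlapped naive at both hours (-0.87, SE 0.51, and -0.91, SE 0.57). The third Dnajc5 probe set, S81917_s_at, lay at the lowest level on 6 arrays. The ER-resident J-domain protein Dnajb9 read 57.3, 39.7 and 89.6 on naive arrays, a spread wide enough to hold its 43.6 and 52.1 at 12 h.

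Of 6 chaperonin probe sets, 4 were above naive at 6 h and 4 at 12 h, with medians of 0.12 and 0.05, and 5 of 6 were above at 0 h with a median of 0.46. Cct6a and Cct3 are subunits of the cytosolic ring chaperonin that folds actin and tubulin. Cct6a read 34.6, 57.1 and 36.1 on naive arrays, 60.1 and 58.1 at 0 h, 53.1 and 86.5 at 2 h, 51.5 and 36.9 at 3 h, 88.3, 87.7 and 55.0 at 6 h, 270 and 76.6 at 12 h, and 59.2 and 58.1 at 24 h. Both arrays at 0 h, 12 h and 24 h were above every naive array, and the 3 h arrays were within the naive range. The 12 h difference was 1.80 (3.47-fold, SE 0.42, unadjusted p = 0.000568, limma adjusted p = 0.199). Replicate 1, the dimmest array before scaling, carried much of it, and without that array the difference was 0.89. Without 12 h replicate 2 it was 2.71 and passed the test (limma adjusted p = 0.01). Cct3 did not follow it, with 204 and 344 at 12 h against 242, 333 and 224 on naive arrays (0.02).

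Hspd1 and Hspe1, the mitochondrial chaperonin and its lid, are transcribed in opposite directions from the promoter printed above. The Hspd1 probe set X54793_at read 856, 691 and 955 on naive arrays, 1060 and 1189 at 0 h, 824 and 936 at 2 h, 820 and 948 at 3 h, 828, 1093 and 959 at 6 h, 925 and 833 at 12 h, and 936 and 1020 at 24 h. Its 0 h arrays were above every naive array (0.44, SE 0.20, limma adjusted p = 0.972). The second Hspd1 probe set, rc_AA858640_s_at, read 382, 202 and 308 on naive arrays, 402 and 399 at 0 h, 251 and 324 at 2 h, 357 and 265 at 3 h, 262, 153 and 324 at 6 h, 203 and 202 at 12 h, and 274 and 257 at 24 h. Its 0 h arrays, too, were above every naive array (0.48, SE 0.30), while its 12 h difference was -0.51. At 0 h Hspe1 read 854 and 981 by rc_AI170613_at, against 570, 377 and 981 on naive arrays (0.62, SE 0.33), and 442 and 357 by rc_AI170613_g_at, against 430, 449 and 479 (-0.19). Hspd1 was thus above naive by both probe sets at 0 h, and Hspe1 by 1 of 2.

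Small heat shock proteins hold unfolded proteins without using ATP. Hspb1 is Hsp25, and its probe set M86389cds_s_at gave the smallest unadjusted p of any member at 0 h, at 24 h and for all trained groups. The naive arrays read 62.6, 66.1 and 62.1, a narrow spread. The trained arrays read 32.7 and 19.2 at 0 h, 27.0 and 64.7 at 2 h, 71.6 and 73.4 at 3 h, 44.7, 15.7 and 44.3 at 6 h, 29.4 and 20.4 at 12 h, and 21.0 and 28.1 at 24 h. It was below every naive array at 0 h, 6 h, 12 h and 24 h and above every naive array at 3 h. The difference was -1.34 at 0 h (SE 0.45, limma adjusted p = 0.822), -1.39 at 24 h (SE 0.45, limma adjusted p = 0.763) and -0.92 for all trained groups (SE 0.32, limma adjusted p = 0.922).

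Of the other 3 Hspb1 probe sets, rc_AI176658_s_at shared the direction of that course at every hour, with smaller differences. The probe set rc_AA998683_g_at did so at every hour but 2 h. Their correlations with M86389cds_s_at over the 16 arrays were 0.45 and 0.43, and that of rc_AA998683_at was -0.39. The brightest Hspb1 probe set, rc_AA998683_at, read 229, 152 and 218 on naive arrays, 253 and 221 at 0 h, 205 and 128 at 2 h, 236 and 109 at 3 h, 207, 199 and 183 at 6 h, 176 and 177 at 12 h, and 273 and 186 at 24 h, with differences of 0.26 at 0 h and 0.20 at 24 h. Another, rc_AA998683_g_at, read 36.2, 53.0 and 43.2 on naive arrays, 34.1 and 38.2 at 0 h, 38.0 and 72.2 at 2 h, 45.5 and 43.1 at 3 h, 38.4, 53.0 and 29.8 at 6 h, 32.2 and 17.7 at 12 h, and 34.9 and 32.2 at 24 h. It lay below every naive array at 12 h (-0.87, SE 0.35) and 24 h (-0.38). The last, rc_AI176658_s_at, read 96.1, 80.3 and 82.2 on naive arrays, 77.2 and 73.9 at 0 h, 79.5 and 91.9 at 2 h, 87.9 and 100 at 3 h, 84.2, 87.0 and 72.6 at 6 h, 73.3 and 57.5 at 12 h, and 98.6 and 70.2 at 24 h, and lay below every naive array at 0 h (-0.19) and 12 h (-0.40). At 12 h all 4 Hspb1 means were thus below naive, by 0.16 to 1.38 on the log2 scale. Averaged over the 4, Hspb1 was -0.38 at 0 h and -0.40 at 24 h.

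Cryab encodes alpha-B-crystallin, which in brain is made mainly by oligodendrocytes and astrocytes. By M55534mRNA_s_at it read 232, 162 and 236 on naive arrays, 262 and 405 at 0 h, 158 and 246 at 2 h, 210 and 219 at 3 h, 215, 342 and 228 at 6 h, 175 and 159 at 12 h, and 182 and 185 at 24 h. By X60351cds_s_at it read 123, 150 and 172 on naive arrays, 165 and 232 at 0 h, 148 and 144 at 2 h, 125 and 154 at 3 h, 128, 60.8 and 131 at 6 h, 138 and 119 at 12 h, and 143 and 121 at 24 h. The first was above every naive array at 0 h (0.65, SE 0.27, limma adjusted p = 0.96) and the second overlapped (0.41, SE 0.30). Without 0 h replicate 2 the first was 0.34. The oligodendrocyte marker score (6 of 8 genes measured, none at the lowest level) was 0.18 and 0.30 at 0 h and 0.05 to 0.36 on naive arrays, and the astrocyte score (7 of 8) was 0.41 and -0.02 at 0 h and -0.08 to 0.42 on naive arrays. Hspb6 and Hspb2, small heat shock proteins best known from muscle, had no unadjusted p under 0.05 at any hour by their 3 tested probe sets.

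Probe sets of the same gene often disagreed. Of 19 genes with more than 1 tested probe set, all probe sets lay on the same side of naive for 11 genes at 6 h and 9 at 12 h, and their differences spanned more than 1 on the log2 scale for 8 genes at 6 h and 6 at 12 h. At 6 h, 11 of the 19 genes had a probe set that was lower at an unadjusted p under 0.05, and for 1 gene, St13, every probe set was. More probe sets give a gene more chances of such a p. The matching share over all genes with several probe sets was not counted, so the 11 have no background to be read against. Over 48 pairs of probe sets of 1 gene, the correlation across the 16 arrays had a median of 0.45, ran from -0.50 to 0.85 and was below 0 for 9 pairs; the arrays differ in brightness, which all pairs share. Such probe sets can read different stretches of a transcript.

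The counts at 6 h and 12 h depended on which probe set stood for a gene. With the brightest tested probe set of each of the 32 genes, a choice made after the values were seen, 15 genes were above and 17 below naive at 6 h (median -0.0043), and 14 above and 18 below at 12 h (median -0.04). By these probe sets 2 genes were lower at an unadjusted p under 0.05 at 6 h (Hspa9 and St13) and 2 at 12 h (Dnaja3 and Hspa5), where 176 (4.79%) and 153 (4.16%) of all 3678 tested genes were lower by the same choice, and 0 of 32 passed after adjustment at either hour. At 0 h, in contrast, the median was 0.27, with 27 of 32 genes above naive and Canx, Cryab and Hspd1 higher at an unadjusted p under 0.05, as were 52 of the 3678. Over the 3678 genes the medians were -0.0093 at 0 h, -0.0037 at 6 h and 0.08 at 12 h.

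**Figure D5:**
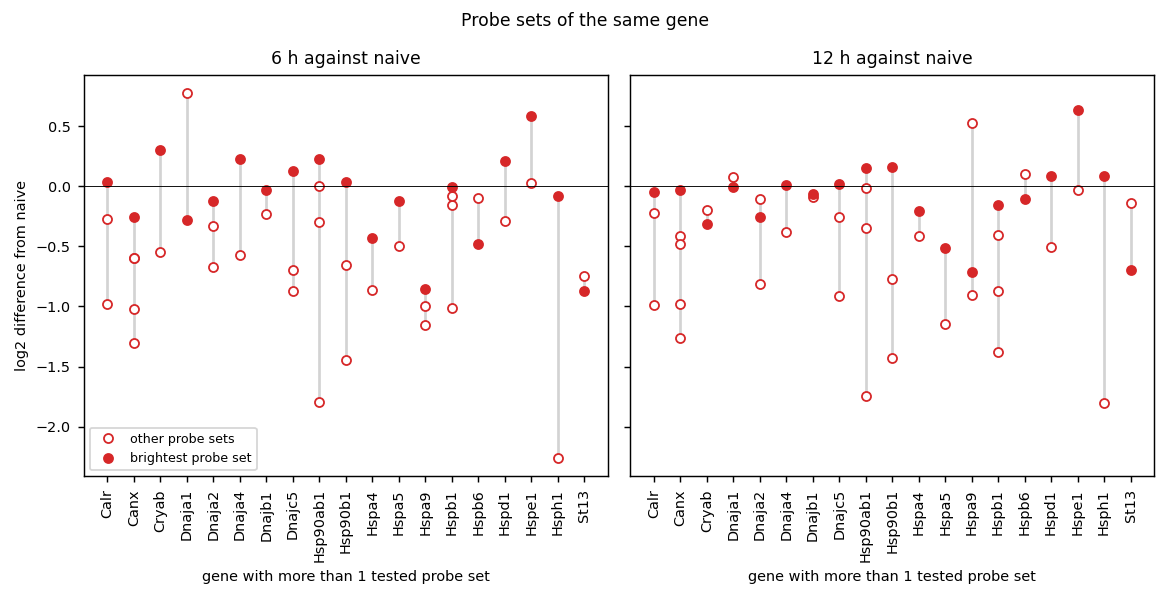
Log2 difference from naive of each tested probe set of the 19 genes that have more than 1, at 6 h (left) and 12 h (right), with the brightest probe set of each gene filled and the others open; a grey line spans each gene. For Hsp90ab1, Hsp90b1 and Hsph1 the filled points lie near 0 while an open point lies below -1.

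The low values were unevenly spread over kinds of probe set. Of the 33 members whose identifiers lack the prefix rc, which marks the reverse complement of a database sequence, 27 were below naive at 6 h (median -0.55) and 12 were lower at an unadjusted p under 0.05. Of the 30 with the prefix, 19 were below naive (median -0.06) and 5 were lower at such a p. Over all tested probe sets the medians at 6 h were -0.08 for 3683 without and 0.05 for 2537 with the prefix, and 8.36% and 3.27% were lower at that threshold. At 12 h the member medians were -0.43 and -0.03. Members with a median intensity up to 157 had a median difference of -0.52 at 6 h, and brighter members -0.12, where the medians over all probe sets split at that intensity were -0.05 and 0.03. These splits were made after the values were seen and have no test.

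Other genes of protein folding and of its stress responses, from a list of 59 of which 27 were tested by their brightest probe set, had a median of -0.06 at 6 h and 0.02 at 12 h, with 12 and 14 of 27 above naive. At an unadjusted p under 0.05, 0 were higher and 2 lower at 6 h, and 2 higher and 1 lower at 12 h. Of all 3678 tested genes by their brightest probe set, 117 were higher and 176 lower at 6 h. At 12 h these counts were 151 and 153. None passed the limma test after adjustment in any comparison. In the F test over the 7 groups 2 of the 27 had an unadjusted p under 0.05, where 10.3% of all tested probe sets did. These were Sgta, a co-chaperone that guides tail-anchored membrane proteins, and Hyou1, the large Hsp70 relative of the ER. Sgta was lowest at 2 h (-0.91, SE 0.21, limma adjusted p = 0.236), and Hyou1 was lowest at 6 h (-0.52, SE 0.17, limma adjusted p = 0.416) and near naive at 12 h (-0.10). Next in order of that p came the stress-response factor Atf3, at 0.81 at 2 h and 0.90 at 12 h, Eif2ak3, the ER stress kinase PERK, at 0.76 at 0 h, and Trap1, the mitochondrial Hsp90, at -0.54 at 12 h.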

How the data were processed

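The authors deposited linear intensities of the probe sets of 16 arrays; per the sources used here, neither the software nor any background correction or scaling is stated. After 59 control probe sets were taken out, the other 8740 were brought to a common 2% trimmed mean (105). The pooled 20th percentile (5.05) served as the lowest level for log2 values. Tests covered the 6220 probe sets with at least 2 arrays above the pooled 40th percentile (16.9).

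Symbols came from the platform annotation; updating them by gene identifier altered no member. Of the 8740 probe sets, 7006 had 1 symbol, 308 several and 1426 none listed. limma 3.58.1 in R 4.3.3 (lmFit, eBayes with a variance trend) was run once over the 7 groups, which share 1 estimate of the spread. Its 9 tests are two-sided and adjusted by Benjamini-Hochberg over 6220 probe sets at 0.05. The models were tested on simulated arrays. The number of arrays limits the precision.

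The members, lists and classes were chosen with earlier results of these data known. By rule, array values are given for the 2 members with the smallest unadjusted p in each test, for other tested probe sets of their genes, and for Cryab, Hspb1, Hspa5, Hspd1, Hsp90ab1 and Hsp90b1; any other member could be named, and those whose values were added were chosen after the values were seen. From the list of other folding genes, the 5 with the smallest unadjusted p over the 7 groups are named. Alternatives changed the normalization, lowest level, filter, variance model, array weights, replicate block or groups in the model, or left out 1 array; 1 probe set per gene was added after seeing the data.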

Additional observations from a re-analysis of the deposited data

How the results depend on the processing

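No member passed the adjusted threshold in any of the 9 comparisons under the alternatives run, with 2 exceptions. When 6 h replicate 3 was left out 3 passed at 6 h (Hsph1 -3.12, Hsp90b1 -1.97 and Hsp90ab1 -2.45), and when 12 h replicate 2 was left out 1 passed at 12 h (Cct6a 2.71); the range over left-out arrays was 0 to 3 at 6 h and 0 to 1 at 12 h. The members' median at 0 h was 0.27 with 1 probe set per gene and 0.0873 to 0.2211 with an array left out. At 3 h it was 0.0172 with median centring and -0.2123 to -0.0071 with an array left out. At 6 h it was -0.1866 with median centring, -0.0043 with 1 probe set per gene and -0.3156 to -0.1858 with an array left out. At 12 h it was -0.0417 with 1 probe set per gene and -0.3443 to -0.1755 with an array left out, and at 24 h 0.0463 and -0.1286 to -0.0175. Members with an unadjusted p under 0.05 moved by over 1.5 times from 19 to 9 at 6 h with array weights, from 4 to 8 at 0 h with array weights, from 6 to 10 at 2 h when only the groups compared were modelled, and from 13 to 6 and 7 in the F tests over 7 and 6 groups without a variance trend. With replicate number as a replicate block 0 members passed after adjustment, and at an unadjusted p under 0.05 there were 3 at 2 h, 19 at 6 h, 14 at 12 h and 4 for all trained groups. Deviations of same-numbered arrays correlated over 0.1 in 12 of 42 pairs of arrays (-0.14 to 0.19), so the numbers were not taken as pairs. Between groups of 2 arrays, replicates 1 and 2 give the same correlation, so the 42 and the 12 hold repeated values. Groups of 2 or 3 arrays leave wide errors, and the lowest level limits what dim probe sets can show.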
